A study of Mus musculus with 18 samples.

Results

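The 6 liver expression columns of a mouse study of 18 RNA samples were compared with its 6 columns of gonadal adipose tissue and its 6 columns of hypothalamus. Columns were chosen by the tissue in their heading, and a gene's level in a column is the sum of the FPKM values (fragments scaled to the length of the transcript and to the mapped total of the library) of all transcript models that carry its name. All samples came from male C57BL/6 offspring aged 3 weeks. Their dams were given bisphenol A (BPA), a plasticiser that acts on estrogen receptors, in corn oil by gavage at 5 mg/kg each day from day 1 to day 20 after conception, or the corn oil vehicle alone. The vehicle offspring came from 3 litters and the BPA offspring from 4. The labels list 3 BPA and 3 vehicle samples per tissue, but the headings give only a tissue and a number, so each tissue mixes both treatments and treatment entered no comparison. Whether a number marks the same animal in each tissue is not stated, and p-values measure the spread among these columns. Values over liver are given in the order of the heading numbers 03, 13, 15, 25, 28 and 42.

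The liver makes most of the proteins of blood plasma, clears ammonia through the urea cycle, stores and releases glucose, burns fatty acids to ketone bodies, turns cholesterol into bile acids and oxidises drugs and steroids with cytochromes P450. Hepatocytes carry most of this work, and they divide it along the lobule, between the periportal zone where blood enters and the pericentral zone where it leaves. Kupffer cells (resident macrophages), sinusoidal endothelium, stellate cells (vitamin A storing pericytes) and bile duct cells make up the rest of the organ. Mice of this age are at weaning, when the liver has left its fetal program and has not reached the sexual dimorphism of the adult.

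Tissue pieces were sequenced in bulk, so fewer cells of a type and less RNA per cell cannot be told apart. Column totals ran from 288191 to 329290 FPKM in liver, from 169666 to 217234 in adipose and from 238309 to 256127 in hypothalamus, and the depth behind them is unknown. Some cells of the tables look like failed estimates. Acadvl and Eef1a1, which every cell uses, are listed at 0 in all 6 liver columns. In 22 genes a liver column lay more than 20-fold under the median of the others, where that median was at least 50 FPKM. For scale, 763 genes had a median of at least 50 FPKM over all 6 liver columns. A value of 0 is therefore reported as listed at 0, and no fold is given against a tissue listed at 0 throughout. Adipose columns 03, 10 and 41 stood apart by genes of the epididymis, the sperm duct next to the gonadal fat: Crisp1 was at 256, 475 and 282 FPKM there and listed at 0 in the other adipose columns. Hypothalamus column 03 stood apart by Ttr, a choroid plexus gene in brain, at 646 FPKM. These genes were chosen after their values were seen.

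The promoters of the 5 marker genes of hepatocytes are shown first, because factors that bind such sequences set the identity of the cell. Each is the 200 bases before the RefSeq start on GRCm38.p6, the assembly named mm10 in the processing notes. Capitals mark matches on either strand to the letters GTTAAT for part of the HNF1 site, CAAAGTCC for the HNF4 core, TGTTTNC for FOXA factors, TTGCNNAA for C/EBP factors, TATAAA for the TATA box and CCAAT for the box of that name, and overlapping matches run together.
Alb, chr5:90460670-90460869, plus strand: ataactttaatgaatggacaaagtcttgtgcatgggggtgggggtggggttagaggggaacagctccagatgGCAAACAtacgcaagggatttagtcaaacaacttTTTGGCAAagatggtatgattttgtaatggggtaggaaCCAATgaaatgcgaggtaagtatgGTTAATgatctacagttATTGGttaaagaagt
Apoa1, chr9:46228430-46228629, plus strand: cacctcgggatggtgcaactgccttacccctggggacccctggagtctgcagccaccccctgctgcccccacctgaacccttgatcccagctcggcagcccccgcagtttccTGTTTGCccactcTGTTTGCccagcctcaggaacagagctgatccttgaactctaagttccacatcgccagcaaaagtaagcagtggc
Serpina1a, chr12:103863620-103863819, minus strand: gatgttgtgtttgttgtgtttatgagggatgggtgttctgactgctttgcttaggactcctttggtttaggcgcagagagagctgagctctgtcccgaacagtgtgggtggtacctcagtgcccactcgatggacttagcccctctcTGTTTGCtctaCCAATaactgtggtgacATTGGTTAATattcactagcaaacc
Pck1, chr2:173152873-173153072, plus strand: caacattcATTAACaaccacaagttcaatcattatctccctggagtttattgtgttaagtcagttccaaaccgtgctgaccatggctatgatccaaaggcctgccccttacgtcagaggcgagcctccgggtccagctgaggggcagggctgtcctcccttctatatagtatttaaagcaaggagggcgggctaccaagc
Cyp2e1, chr7:140763619-140763818, plus strand: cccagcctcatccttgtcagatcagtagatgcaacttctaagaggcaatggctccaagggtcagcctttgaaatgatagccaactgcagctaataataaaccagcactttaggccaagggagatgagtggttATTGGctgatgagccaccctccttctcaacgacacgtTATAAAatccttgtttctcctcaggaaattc

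Alb held a match to the letters of HNF1 at 32 to 27 bases before the start, a FOXA match, a C/EBP match and 2 CCAAT boxes. Serpina1a held the HNF1 letters at 21 to 16 bases before the start, overlapping a CCAAT box by 1 base, and a FOXA match. Apoa1 held the FOXA letters at 2 places. Pck1 held only an HNF1 match, far from the start, and Cyp2e1 held a TATA box and a CCAAT box. Of 13847 genes tested below, 10285 had a promoter in the RefSeq table, of which 3.01% held the HNF1 letters, 1% those of HNF4, 10.1% those of FOXA, 5.9% those of C/EBP, 5.15% a TATA box and 32.3% a CCAAT box. Among the 866 promoters of genes higher in liver than in both other tissues the shares in the same order were 8.78%, 3.12%, 17.3%, 11.1%, 10.5% and 37.1%. These shares are descriptions and were not tested, and a match is not a bound site.

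Alb, which encodes serum albumin and lies on chromosome 5, 90460870 to 90476602 in RefSeq, was the gene of highest level in liver. It stood at 41279.5, 34726, 30775, 37479, 1112 and 37343 FPKM, so liver column 28 was low and the other 5 were alike. Adipose held 9.81, 19.2, 18.7, 11.7, 29.8 and 41.8 FPKM and hypothalamus 24.3, 22.4, 40.7, 22.6, 24.1 and 60.3, all below every liver column. On the log2(FPKM + 1) scale, which understates changes of low genes, liver was 9.95 ± 0.71 (SE) above adipose and 9.35 ± 0.71 (SE) above hypothalamus (limma, adjusted p = 2.66e-09 for the larger p of both comparisons, liver higher in 6 of 6 columns).

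Apoa1, which builds the particles of high density lipoprotein (chromosome 9, 46228630 to 46230469), was at 3850.1, 3936, 1875, 3672, 1317 and 4020.3 FPKM in liver. It was at 2.45 to 4.59 FPKM in adipose and 1.76 to 10.8 in hypothalamus, and no liver column overlapped either. Serpina1a, an alpha-1 antitrypsin (chromosome 12, 103853295 to 103863619), was at 2063, 1889, 741, 1696, 634 and 1851 FPKM in liver, with columns 15 and 28 low in both genes. Its adipose and hypothalamus columns stayed at or under 3.31 FPKM. Serpina1a has near-identical neighbours in a gene cluster, and 23.8% of its liver level came from models on the opposite strand, so its share among paralogs is uncertain.

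Cyp2e1, which oxidises ethanol and small solvents (chromosome 7, 140763819 to 140774990), was highest in liver but high in adipose as well. It was at 3858, 4330.0, 4481, 2647, 3812 and 3081 FPKM in liver and 752, 1125, 1535, 831, 603 and 759 in adipose, the lowest liver column above the highest adipose column. Hypothalamus held 1.64 to 6.84 FPKM. Liver was 2.03 ± 0.27 (SE) above adipose and 10.02 ± 0.27 (SE) above hypothalamus on the log2 scale (limma, adjusted p = 3.51e-06).

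Pck1, the cytosolic enzyme that commits carbon to glucose (chromosome 2, 173153073 to 173159274), did not set liver apart. It was at 751, 684, 973, 454, 1001 and 694 FPKM in liver and 254, 606, 570.2, 371, 529 and 630 in adipose, where the same enzyme makes glycerol for fat storage, and the groups overlapped. Liver was 0.64 ± 0.25 (SE) above adipose, under the 1 log2 unit required, and 9.16 ± 0.25 (SE) above hypothalamus (limma, adjusted p = 0.0412). Thus 4 of the 5 markers were higher in liver than in both other tissues, and all 5 were higher than in hypothalamus.

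**Figure D1:**
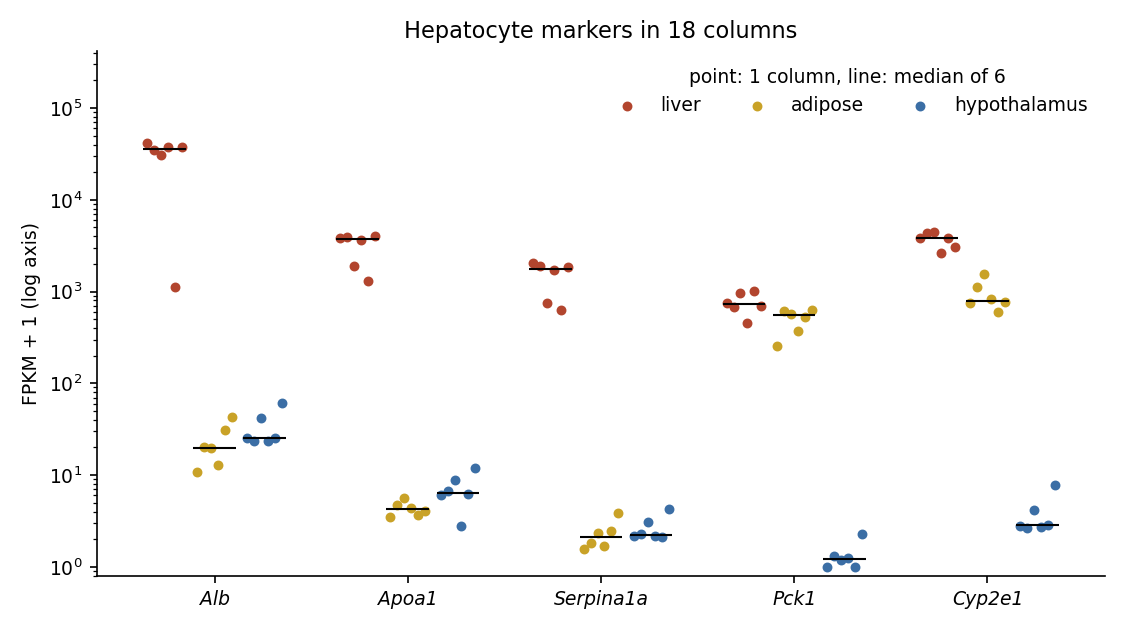
FPKM + 1 on a log axis for the 5 hepatocyte markers, 1 point for each of the 18 columns and a line at the median of the 6 columns of a tissue. Alb falls to 1112 FPKM in 1 liver column, Pck1 overlaps between liver and adipose, and Cyp2e1 lies above 600 FPKM in every adipose column.

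Across the 13847 genes with a mean of at least 1 FPKM in some tissue, 1166 were higher in liver than in each other tissue (8.42%) and 1845 were lower than in each (13.3%). The call asked for at least 1 log2 unit against both tissues and for an adjusted p under 0.05 of the larger of both limma p-values. Liver was higher than adipose for 1712 genes (12.4%) and lower for 3244 (23.4%). Against hypothalamus it was higher for 1762 genes (12.7%) and lower for 6472 (46.7%). All 6 liver columns lay above all 12 others for 1352 of the 13847 genes and for 1067 of the 1166 called higher. The call itself picks genes whose columns lie apart, so the second count is a description. By at least 5 log2 units, or 32-fold, 226 genes were higher against both.

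The gene at the middle of all tested lay 0.22 log2 units lower in liver than in adipose and 0.88 lower than in hypothalamus. With every column divided by its median these shifts were 0.14 and 0.36, and with every column total set equal they were 0.86 and 1.41. Of the called genes 38.7% were higher in liver as deposited, 50.2% after division by the median (1481 higher, 1472 lower) and 18.3% with equal totals (974 higher, 4334 lower).  Without adipose columns 03, 10 and 41 the counts were 1179 higher and 1693 lower, and without hypothalamus column 03 they were 1163 and 1835.

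**Figure D2:**
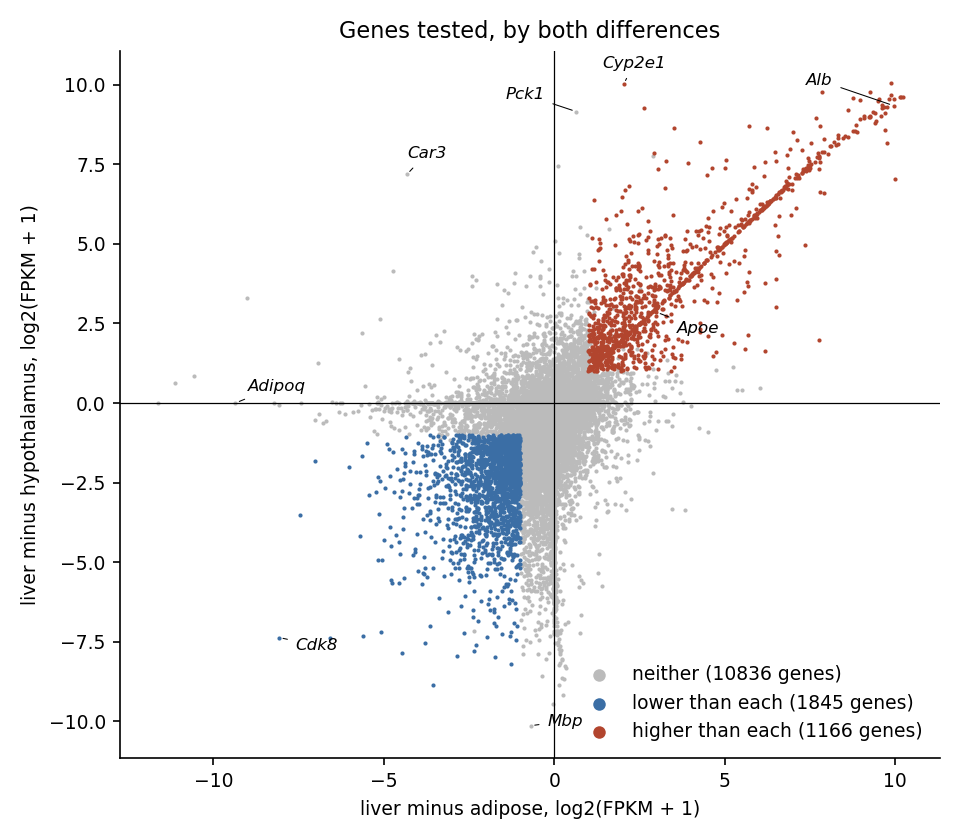
Each point is 1 of the 13847 genes tested, placed by its liver minus adipose difference (x axis) and liver minus hypothalamus difference (y axis) in log2(FPKM + 1). The 1166 genes higher than in each tissue reach 10 log2 units along the diagonal, Cyp2e1 and Pck1 lie 2.03 and 0.64 units right of the vertical line, and Adipoq and Mbp lie far along the axes of adipose and hypothalamus.

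A few genes carried much of the liver signal. The 10 highest genes of a column took 23.2% ± 3.59 of its total in liver, 21.8% ± 4.02 in adipose and 6.91% ± 1.10 in hypothalamus (SD, n = 6 each). Liver and hypothalamus did not overlap (exact 2-sided permutation test, p = 0.00216, the smallest that 6 against 6 columns allow), and liver and adipose overlapped (exact permutation test, p = 0.517). The leading genes differed in kind: in liver Alb alone took at least 10.2% of the total in 5 columns and 0.386% in column 28, while Rpph1, the RNA of RNase P, led 4 of the 6 adipose columns. Without Alb, an alternative chosen after seeing the data, the liver share was 15.8% ± 1.00 (SD, n = 6). That lay below adipose at 21.8% ± 4.02 (exact 2-sided permutation test, p = 0.00866). Adipose kept its own leading genes there, so this difference cannot rank the tissues. Between 68 and 140 genes made up the first 50% of the FPKM of named genes in liver, 201 to 270 in adipose and 655 to 773 in hypothalamus.

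Below Alb, 13 more of the 20 highest liver genes were on the lists of plasma transport, lipoprotein, coagulation and acute phase proteins. Apoe, which directs lipoprotein remnants to their receptors, was at 7320.4, 6006, 5712, 7804, 8662 and 10016 FPKM in liver. Apoe was high everywhere, at 669 to 1463 FPKM in adipose and 895 to 1178 in hypothalamus, yet its liver columns did not overlap either. Trf, the iron carrier transferrin, was at 3442, 3899, 2978, 4887, 5149 and 4797 FPKM in liver and 318 to 604 in adipose. Ahsg, the mineral carrier fetuin A, was at 5023, 6049, 4969, 257, 8061 and 8802 FPKM, and Apoa2, the second protein of high density lipoprotein, at 4278, 4.01, 3617, 4985, 5614 and 5352. Each had 1 column far below the rest, column 25 for Ahsg and column 13 for Apoa2, and both genes were at or under 10.1 FPKM in every adipose and hypothalamus column. The low column of Apoa2 lay within the range of those tissues, and that of Ahsg above it. Ttr, the carrier of thyroxine and retinol, was at 3287, 3724, 3212, 4665, 3808 and 1952 FPKM in liver and at 1.33 to 6.88 in adipose. In hypothalamus it was at most 9.08 FPKM outside column 03. Filip1l and Rn45s also ranked among the 20, but 98.4% of the liver level of Filip1l came from models on the strand opposite to the gene, and Rn45s is the precursor of ribosomal RNA, which poly(A) selection should remove.

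All 20 tested plasma transport proteins were higher in liver, against 8.42% of all genes. Their median lay 7.92 log2 units above adipose and 8.46 above hypothalamus, where the medians of all genes were below 0. Counts of higher and lower genes in the lists below stand against 8.42% and 13.3% of all genes. Members under 1 FPKM on average in both other tissues entered the test only through liver, so for these a higher call is a description. Ambp, the precursor of alpha-1-microglobulin and bikunin, was at 992, 1099, 829.8, 1176, 1247 and 1216 FPKM in liver and at most 1.41 elsewhere. Hpx, which binds free heme, was at 1464, 1837, 1392, 1546, 1568 and 1244 FPKM and at most 2.01 elsewhere. Both were alike in all 6 liver columns. Apoh, beta-2-glycoprotein I, was at 1269.7, 1264, 1277, 1372, 1365 and 1262 FPKM, an SD of 0.06 log2 units over the 6 columns.

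Of 20 coagulation and fibrinolysis genes 19 were higher, with medians 6.95 and 6.58 log2 units above adipose and hypothalamus. The 3 fibrinogen chains, which form the fibrin clot from neighbouring genes on chromosome 3, were nearly equal. Fga was at 1936, 1929, 2179, 1873, 1786 and 1911 FPKM, Fgb at 2014, 1856, 2416, 1970.0, 2021 and 1579.6 and Fgg at 1684, 1853, 1771, 1722, 1786 and 1769.7. The lowest of these 18 values was 1579.6 FPKM, and no column of another tissue passed 3.18. Fgg had an SD of only 0.05 log2 units. Plg, the precursor of plasmin, was at 684, 599.7, 732, 730.3, 733 and 692 FPKM and Kng1, which releases bradykinin, at 854, 841, 719, 1024, 430.1 and 1122. Only F5 was not called. F12, the contact factor, was higher with an uneven level of 88, 40, 2.81, 117, 0.136 and 0.197 FPKM, listed at 0 in all columns of the other tissues.

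Of 19 complement genes tested 14 were higher, and none was lower. Cfb, of the alternative pathway, was at 246, 289, 281, 343, 313 and 324 FPKM in liver and 3.61 to 24.2 in adipose. Cfi, which cleaves C3b and C4b, was at 189.8, 240.1, 217, 192, 205 and 197 FPKM, Mbl2, a mannose lectin, at 129, 164, 158, 242, 246 and 274 and C8g, of the membrane attack complex, at 170.3, 211, 138, 139, 153 and 152. C4bp, an inhibitor of the classical pathway, was at 181, 206, 169, 158, 161 and 125 FPKM in liver against 127, 9.48, 0, 0, 66.2 and 0 in adipose. Adipose column 03 overlapped liver, and the 3 adipose columns above 0 were those with epididymal genes. The subunits of C1q, which macrophages make, were among the 5 not called. C3 itself was at most 0.326 FPKM in liver, all on the opposite strand, and listed at 0 elsewhere. For C3 a failed estimate cannot be told apart from a low level.

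Of 18 acute phase genes tested 15 were higher. Serpina3k, a contrapsin, was at 5329.6, 4726, 4517, 2354, 2661 and 1509.8 FPKM in liver, with columns 25, 28 and 42 below the others. Hp, which binds free hemoglobin, was at 1301, 1492, 1120.2, 1233, 1166 and 872 FPKM in liver and 153 to 247 in adipose, while hypothalamus reached at most 1.86. Of 21 apolipoprotein and lipoprotein genes 15 were higher and Pltp was lower. Apom, which carries sphingosine 1-phosphate, was at 299, 329.6, 302, 309.8, 345 and 324 FPKM and listed at 0 in all 12 other columns. Apoc1, an exchangeable apolipoprotein, was at 846, 1499, 2157, 2381, 2702 and 389 FPKM. Pltp, which moves phospholipid between particles, was at 5.95, 7.94, 8.09, 9.35, 10.5 and 9.43 FPKM in liver, 13.1 to 30.3 in adipose and 27.7 to 33.9 in hypothalamus, the liver columns all lowest.

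Nitrogen handling was the next block. Of 12 urea cycle and ammonia genes 11 were higher in liver, with medians 5.26 and 4.90 log2 units above adipose and hypothalamus. Cps1, which fixes ammonia into carbamoyl phosphate, was at 1083, 824, 920.5, 796, 835 and 640.2 FPKM and at most 1.3 in the other tissues. Otc, the next enzyme, was at 129.5, 174, 147, 132, 145 and 145 FPKM, and Asl, which releases fumarate, at 81.8, 87.1, 40.4, 61.6, 51.8 and 41.4. Ass1, which joins citrulline to aspartate, was at 1063, 1892, 561, 1243, 1542 and 538 FPKM in liver, listed at 0 in adipose and at 0 to 21.4 in hypothalamus. Arg1, which splits off urea, was at 839, 873, 241, 657, 828 and 492 FPKM, column 15 lowest, and Nags, which makes the activator of Cps1, at 20.1, 22.6, 17.5, 23.3, 20 and 9.42. The carriers Slc25a15 (ornithine) and Slc25a13 (aspartate and glutamate) were at 48.6 to 100.3 and 51.6 to 85.3 FPKM.

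Glul, which takes up the remaining ammonia as glutamine in a rim of pericentral cells, was the exception. It was at 29.3, 81.9, 95.3, 96.8, 109 and 121 FPKM in liver, 458, 379, 52.7, 435, 29.7 and 37.3 in adipose and 303, 250.5, 333, 0.7, 375 and 2.37 in hypothalamus, and all 3 tissues overlapped. Glud1, which interconverts glutamate and ammonia, passed with the smallest difference of the 11, at 185 to 228 FPKM in liver against 48.3 to 89.7 and 97.5 to 103. Its call was lost with equal totals, the gene table and percentile ranks. Rhbg, an ammonia channel, was at 3.92, 5.73, 3.85, 4.9, 7.54 and 6.05 FPKM.

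Of 30 genes of amino acid breakdown 24 were higher and none was lower. Tdo2, which opens the ring of tryptophan, was at 1213, 1285, 1068, 567, 823 and 418 FPKM in liver and at most 1.33 elsewhere. Hpd, of tyrosine breakdown, was at 1098, 1071, 797, 969.9, 1018 and 772 FPKM. Tat, the first enzyme of tyrosine breakdown, was at 472, 0.337, 152, 218, 692 and 273 FPKM, with column 13 near 0. The glycine cleavage genes Gldc, Amt and Gcsh and the branched-chain dehydrogenase genes Bckdha and Bckdhb were among the 6 not called. Of 20 methionine and one-carbon genes 15 were higher. Bhmt, which remethylates homocysteine with betaine, was at 2958, 2183, 1052, 1498, 1790.5 and 1263 FPKM and was 10.19 ± 0.28 (SE) log2 units above adipose and 9.62 ± 0.28 (SE) above hypothalamus (limma, adjusted p = 1.52e-15). Mat1a, which makes S-adenosylmethionine in liver, was at 875, 1086, 814, 607, 797 and 562 FPKM, Gnmt, which consumes it, at 1037, 1189, 647, 825, 1026 and 767 and Ahcy at 827, 809, 578, 601, 669 and 446. Bhmt spanned the widest range of these.

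Of 17 gluconeogenesis and glycogen genes 12 were higher. G6pc, which releases free glucose, was at 89.8, 168, 129, 71.7, 232 and 324 FPKM in liver, columns 25 and 03 lowest and 42 highest, and at most 0.357 in other tissues. Fbp1 was at 499.6, 576, 419.9, 367, 443 and 426 FPKM. Pck2, the mitochondrial isoform of Pck1, was at 0.912, 1.19, 0.984, 1.36, 1.5 and 1.55 FPKM in liver and was lower than in adipose, at 3.25 to 10.6, and hypothalamus, at 3.8 to 5.18. That call was not made when columns were divided by their median. The glucose transporter of hepatocytes, Slc2a2, was at 35.4, 0, 14.8, 0, 0 and 53.5 FPKM, with 3 columns listed at 0. It was called higher, and the call was lost without column 03, 15 or 42.

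Of 25 genes of fatty acid oxidation and ketone formation 24 were higher, with medians of 2.48 and 3.56 log2 units. With equal totals 19 were higher. The largest differences were in microsomal omega-oxidation. Cyp4a14 was at 1444, 1522, 1712, 929, 869 and 711 FPKM and Cyp4a10 at 1332, 1302, 1302, 531, 760.3 and 544, and both were at most 2.27 elsewhere. In both genes columns 03, 13 and 15 stood above columns 25, 28 and 42. Fabp1, the fatty acid binding protein of hepatocytes and among the 20 highest genes, was at 1592, 2162, 2279, 1666, 1773 and 2568 FPKM. Scp2, a sterol and fatty acid carrier of peroxisomes, was at 590.2, 519, 650.2, 438, 395 and 361 FPKM. Hadhb was the member not called.

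Of 21 genes of cholesterol synthesis 4 were higher in liver than in each tissue, against 8.42% of all genes. Against adipose 10 were higher, where 12.4% of all genes were, and 6 were lower than in hypothalamus, where 46.7% of all genes were. Ebp was at 85, 96.2, 71.8, 101, 107 and 102 FPKM and Sc5d at 44.9, 77.4, 74, 94.8, 82 and 129.8. Tm7sf2, also higher, had a level of 0.77, 31.7, 32.8, 56.9, 55.9 and 56.5 FPKM with column 03 near 0. Hmgcs1, which feeds the pathway, was at 24, 17.1, 20.3, 73.7, 42.9 and 92.3 FPKM in liver, 1.34 to 31.9 in adipose and 72.5 to 118 in hypothalamus and was not called.

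Of 20 genes of bile acid synthesis and transport 17 were higher. Of the uptake carriers Slc10a1 was at 313, 303, 282, 279.8, 302 and 328 FPKM and at most 0.613 elsewhere. Slco1b2 was at 186, 266, 226, 148, 131 and 150 FPKM and listed at 0 in every column of the other tissues. Slc27a5, which activates bile acids, was at 283, 311, 282, 299, 343 and 316 FPKM. Cyp7a1, the rate-limiting enzyme, was at 30.4, 63.8, 23.9, 35.7, 43.1 and 14.8 FPKM and Cyp8b1, which sets the ratio of cholate, at 279, 299, 152, 112, 135 and 182. The SD over the liver columns was 0.70 and 0.57 log2 units for the enzymes and 0.09 and 0.39 for the carriers. Of 25 drug and steroid cytochromes P450, 23 were higher. Cyp3a11 was at 2752, 3050.2, 2803, 1658, 2079.6 and 1705 FPKM and Cyp2c29 at 323, 527, 591, 1281, 1072 and 782. Cyp2c50 was at 381, 379, 426, 458, 493 and 417 FPKM and Cyp3a25 at 352, 458, 428, 349.6, 340.3 and 306. These families have many similar copies, so the division of reads among members is uncertain. Cyp3a11 and Cyp2c29 ran opposite ways over the columns, the first highest and the second lowest in 03, 13 and 15.

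Of 19 hepatocyte transcription factors tested, 14 were higher and none was lower. Hnf4a, the nuclear receptor that holds the hepatocyte state, was at 137, 105, 126, 114, 112 and 73.6 FPKM in liver and at most 6.11 elsewhere. The xenobiotic receptor Nr1i3 was at 32.2, 35.1, 35, 31.8, 36.8 and 45 FPKM and listed at 0 in every other column, and the bile acid receptor Nr1h4 was at 30.3, 22.2, 26.7, 40.9, 28.8 and 20.8. Cebpb was at 30.1, 61.4, 62.2, 52.7, 100 and 57.2 FPKM in liver. Cebpa, which also drives fat cells, was at 63.2, 73.7, 78.5, 70.8, 59.8 and 88.3 FPKM in liver and 44.8, 92.4, 128, 101, 86.4 and 143 in adipose and was not called. Xbp1, of secretory cells, was at 47.3, 53, 50, 18.9, 41.7 and 52.2 FPKM, overlapping adipose at 44.1 to 80.6. With equal totals 1 factor was lower than in each tissue, as were 2 methionine cycle genes and 1 gene each of the cholesterol, pericentral and female-biased lists. Under that scaling 4334 of all 13847 genes were lower.

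**Figure D3:**
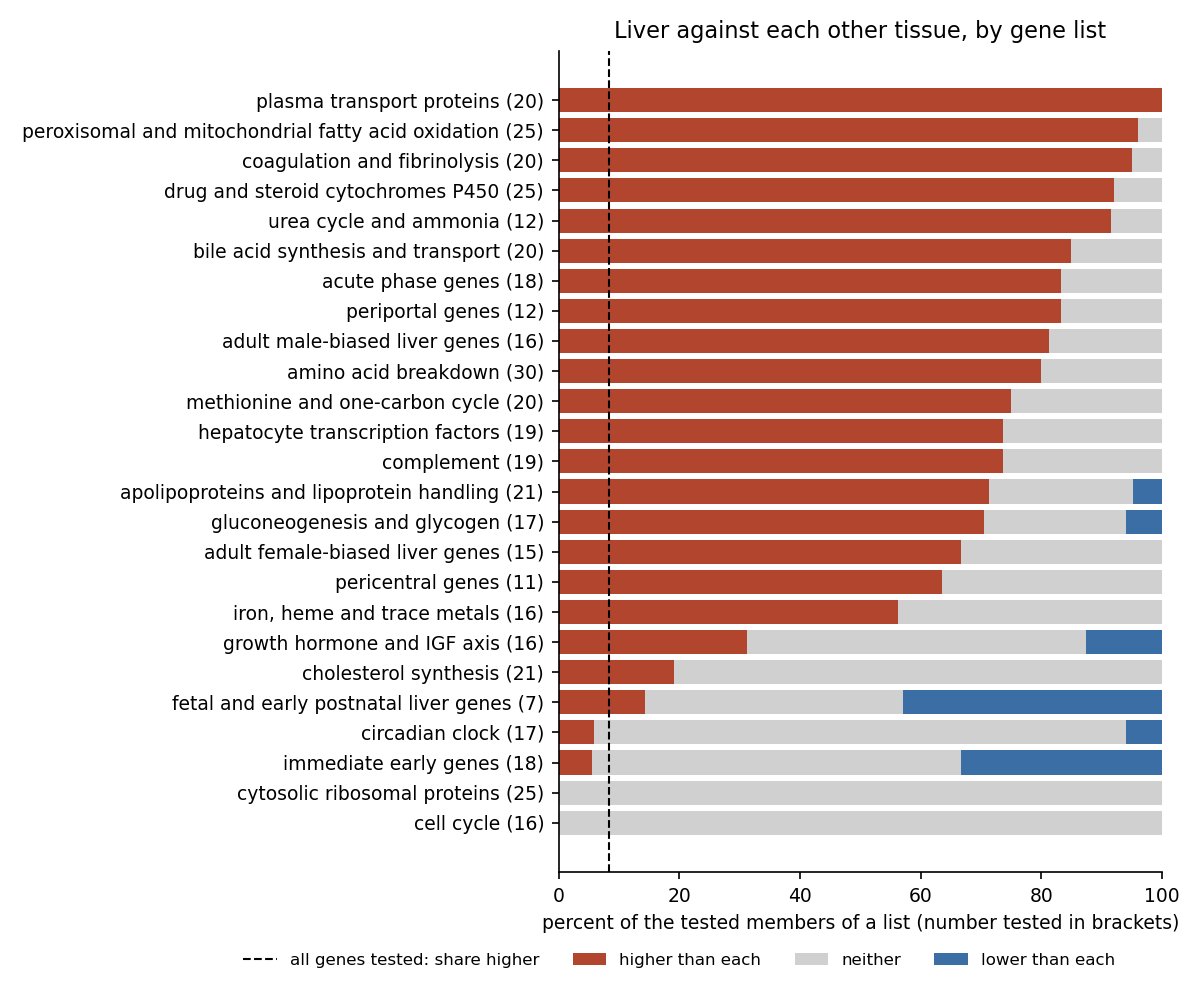
Bars give, for 25 gene lists, the percent of tested members that were higher in liver than in each other tissue, neither, or lower, with the number tested in brackets and a dashed line at the 8.42% of all genes that were higher. Plasma transport proteins reach 100%, and ribosomal proteins and cell cycle genes have no member called.

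Genes known from both zones of the lobule were among those higher in liver, but bulk values hold no position within the lobule. Of 12 periportal genes 10 were higher and of 11 pericentral genes 7. Sds, Hal and Gls2, periportal enzymes of serine, histidine and glutamine, were at 148, 124, 68.8, 62.3, 109 and 56.5 FPKM, 70.2, 63, 56, 39.2, 58.4 and 75.6 and 96.9, 90.7, 71.1, 99, 90.4 and 91.3. Cyp2f2, the classical periportal P450, was at 289, 234, 295, 259, 281 and 351 FPKM. On the pericentral side Oat was at 225, 299.8, 217, 139.6, 228 and 157 FPKM, Gulo, which makes vitamin C, at 76.5, 90.3, 82.9, 115, 143 and 131 and Lect2 at 47, 79.2, 58.1, 82.3, 121 and 94.4. Cyp1a2, a pericentral P450 that foreign compounds induce, was the most uneven at 11.8, 49.2, 128, 111, 46.5 and 253 FPKM and listed at 0 in all 12 other columns. The pericentral genes Glul and Slc1a2 and the Wnt targets Axin2 and Tbx3 were not called, and Lgr5 was under 1 FPKM in every column.

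Of 11 genes of the fetal liver 7 could be tested, of which 1 was higher and 3 were lower, against 8.42% and 13.3% of all genes. Afp, the fetal serum protein, was at 0.116, 0.558, 0.58, 1.6, 0.919 and 1.85 FPKM and listed at 0 elsewhere, under the level needed for the test. Igf2, the fetal growth factor, was listed at 0 in 5 liver columns and at 0.222 FPKM in column 25, against 2.68 to 6.85 in adipose and 28.9 to 55.3 in hypothalamus. Gpc3, a fetal surface proteoglycan, was at 1.19, 1.29, 3, 5.06, 5.14 and 5.76 FPKM in liver and Cd24a at 0.606, 0.603, 0.86, 1.05, 0.921 and 1.26, both called lower, and Gpc3 overlapped hypothalamus, not adipose, and lost its call without liver column 03 or 13. By scaling, the list held 2 lower genes after division by the median and 4 with equal totals. Among all 13847 genes 1472 and 4334 were lower under these scalings. H19, the imprinted RNA next to Igf2, did not follow Igf2. It was at 2.31, 4.37, 5.32, 104, 33.5 and 66 FPKM in liver, high in columns 25, 28 and 42 and low in 03, 13 and 15, and at 2.74 to 12 in adipose. It was not called, and was called higher without column 03. Spink3, the member called higher, was at only 0.736, 0.898, 1.55, 2.09, 1.55 and 2.71 FPKM.

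Of 16 genes that are biased to males in adult liver 13 were higher, and of 15 biased to females 10, against 8.42% of all genes. Of the 17 and 16 listed, 11 and 12 were at 0 throughout adipose and 10 and 13 throughout hypothalamus. A gene at 0 in both could enter the test only through liver and could not be called lower, so these counts are descriptions. Mup3, a major urinary protein, was at 903, 1152, 1385, 439, 300.5 and 254 FPKM and Mup20, another, at 292, 192, 558, 112, 56.1 and 45.1. Both were highest in columns 03, 13 and 15. Cyp2d9, a male steroid hydroxylase, was at 424, 241, 389.6, 200.5, 138 and 119.5 FPKM, also highest in 03. Among the female-biased genes Sult2a1, a steroid sulfotransferase, was at 3.42, 77.7, 9, 186, 345 and 238 FPKM, Cyp2b9 at 44.4, 69.5, 45.8, 106, 22.1 and 184 and Cyp3a41b at 31.2, 0.461, 27.5, 239, 13.5 and 3.3, all listed at 0 in the other tissues. The Mup and Cyp3a clusters hold near-identical genes, and Mup1 is listed at 0 in every column.

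In the growth hormone and insulin-like growth factor axis 5 of 16 genes were higher and 2 were lower, against 8.42% and 13.3% of all genes. Igfbp2 was at 384, 381, 410.3, 481, 503 and 548 FPKM, Igfbp4 at 427, 394, 394, 384, 438 and 437 and Igfbp1, which fasting raises, at 190.5, 255, 255, 203, 628 and 352 with column 28 highest. Igfals, which holds the growth factor in its long-lived complex, was at 14, 14.9, 18.8, 25.5, 22.2 and 23.4 FPKM. Ghr, the growth hormone receptor, was at 67.8, 76.2, 71.6, 64.4, 81.2 and 71.9 FPKM in liver and 62.3 to 130.5 in adipose and was not called. Igf1r, the receptor of the growth factors, was listed at 0 in all 6 liver columns and was at 3 to 9.03 and 3.26 to 4.56 FPKM in the others, and Jak2 was at 1.41, 0.738, 1.7, 1.88, 1.7 and 2.28 FPKM, below both. After division by the median 7 genes of the axis were higher and 1 was lower, where 1481 and 1472 of all 13847 genes were.

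Of 16 genes of iron, heme and trace metals 9 were higher. The iron hormone Hamp was at 368, 170.2, 324, 256, 24.5 and 302 FPKM and its copy Hamp2 at 219, 256, 235, 245, 34.2 and 423, both lowest in column 28. Hfe2, the coreceptor that controls them, was at 13.6, 13.3, 18.2, 22.7, 18.1 and 20.8 FPKM. Ftl1, the ferritin light chain, was at 1099, 1499, 1299.9, 1669, 1718 and 1669.6 FPKM in liver and lower in both others, while the heavy chain Fth1 was at 869, 979, 831, 938, 1023 and 1202 in liver and 868 to 1084 in hypothalamus and was not called. Mt1, a metallothionein, was at 994, 731, 473, 496, 826 and 504 FPKM in liver against 330.4 to 476 in hypothalamus, and Sepp1, the selenium carrier, was at 2788, 52.9, 2903, 174, 1904 and 16.1 FPKM with 3 columns under 200. Neither was called, but Mt1 was after division by the median, and Sepp1 was with cells far below the other columns set missing.

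Lists of shared cell functions had few members called higher. None of 25 ribosomal protein genes was called by limma, against 8.42% of all genes called higher and 13.3% called lower. With equal totals 1 was lower, where 4334 of all 13847 genes were. At an unadjusted p under 0.05 against both tissues 1 ribosomal gene was higher, with no minimum difference. None of 16 cell cycle genes was called, against the same shares, and 6 were higher at an unadjusted p under 0.05. The share of all genes at that unadjusted p was not computed. Against hypothalamus alone 8 cell cycle genes were higher, where 12.7% of all genes were, and against adipose alone 2 were lower, where 23.4% were. Rplp1 was at 367, 434, 377, 440.2, 472 and 426 FPKM in liver, 325 to 700.3 in adipose and 286 to 443 in hypothalamus. Of 17 clock genes only Nfil3 was higher and only Per3 lower than in each tissue, against 8.42% and 13.3% of all genes, and 11 were lower than in hypothalamus, against 46.7%. With equal totals no clock gene was higher and 5 were lower, where 974 and 4334 of all 13847 genes were. Nfil3 lost its call without liver column 03, 25 or 28. Nfil3 was at 10.5, 7.58, 6.93, 12.1, 11.7 and 6.16 FPKM and Nr1d1 at 19.2, 7.66, 15.1, 6.02, 8.43 and 17.8. Of 18 immediate early genes, which handling of tissue can raise, Zfp36 was higher and 6 were lower than in each tissue. The shares of all genes were 8.42% and 13.3%. After division by the median 4 immediate early genes were lower, where 1472 of all 13847 genes were. Zfp36 was at 19.5, 22.6, 29.8, 24.9, 44.5 and 25.2 FPKM, Jun at 0.942, 2.34, 9.93, 2.14, 6.49 and 3.16 and Klf4 at 0, 0, 0, 0.301, 0 and 0. Dusp1 was at 2.66, 6.07, 10.9, 4.16, 27.5 and 18.6 FPKM, overlapping both tissues.

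Markers of the other liver cells were present at low levels. All 5 Kupffer cell markers tested were higher in liver, against 8.42% of all genes. Their sum ran from 74.7 to 114 FPKM, against at most 0.883 in adipose and 0 in hypothalamus. Each of the 5 thus entered the test only through liver, so the count is a description. Clec4f, a lectin of mouse Kupffer cells, was at 27.9, 32.1, 23.9, 30.8, 35.5 and 40.7 FPKM, Cd5l at 36.2, 36.8, 31.1, 35.8, 42.2 and 42.7, Vsig4 at 14.2, 14.1, 11, 13.2, 14.5 and 16.9, Marco at 5.45, 3.73, 6.13, 8.04, 6.88 and 9.84 and Timd4 at 2.85, 2.77, 2.56, 3.12, 3.07 and 3.49. Column 42 was highest in each of the 5. Of 6 sinusoidal endothelial markers 4 were higher: Clec4g was at 25.3, 27.8, 15.7, 17.8, 16.4 and 19.5 FPKM, Dnase1l3 at 10, 12.4, 8, 14.6, 9.11 and 19.1, Oit3 at 5.72, 4.74, 5.57, 7.05, 5.08 and 8.78 and Stab2 at 1.17, 1.36, 2.05, 1.9, 4.05 and 2.4. The call on Stab2 was lost with the gene table and with the largest single model. Clec4g, Dnase1l3 and Oit3, listed at 0 in both other tissues, also entered the test only through liver. Fcgr2b and Lyve1, which other vessels carry too, were not called.

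Of 5 stellate cell markers tested, Lrat, which makes retinyl esters, Hand2, Colec11 and Ecm1 were higher, and Rgs5, a general pericyte gene, was lower. Lrat was at 1.57, 1.5, 2.09, 2.24, 1.74 and 2.42 FPKM, Hand2 at 2.41, 2.23, 2.68, 2.76, 2.68 and 3.25, Colec11 at 15, 13.8, 15.2, 15.1, 18.7 and 23.6 and Ecm1 at 49.1, 33.4, 40.8, 47.9, 46.7 and 69.2. Rgs5 was at 10.4, 14.4, 8.59, 8.82, 12.5 and 10.2 FPKM in liver, 75.7 to 154 in adipose and 25.3 to 48.7 in hypothalamus. Bile duct markers were sparse. Epcam and Cftr were listed at 0 in all 6 liver columns, Krt19 was at 0.485, 0, 0.393, 0.804, 0.436 and 1.09 FPKM, and Spp1, which other cells make as well, was the member called higher at 16, 13.5, 18.4, 23.8, 17.4 and 33.5 FPKM, a call not made with equal totals.

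Markers of other organs were mostly low in the liver columns. Of 6 adipocyte markers Adipoq, Plin1 and Lep were listed at 0 in every liver column. Car3, which hepatocytes also express, was at 108, 124, 136, 185, 261 and 208 FPKM in liver against 1790.1 to 4915 in adipose, and made up nearly all of the summed level of 111 to 262 FPKM. Of 8 pancreatic markers 6 were listed at 0, and Cela1 was at 3.9, 4.59, 2.59, 4.32, 5.22 and 4.51 FPKM, overlapping adipose. Cela1, the only member tested, was called higher than in each tissue (limma, adjusted p = 0.000683), a call not made with the gene table. Cela2a was at 0.306 to 1.38 FPKM in liver. Of 6 neuronal markers Rbfox3, Gad1 and Slc17a6 were listed at 0, and the sum was 1.41 to 3.78 FPKM in liver against 777 to 1017 in hypothalamus. Liver column 15 alone held Snap25, at 1.60 FPKM, and the most Mbp, a myelin gene, at 0.887, 0.256, 6.92, 0.852, 0 and 0.623 FPKM. Hemoglobin and other erythroid genes, not called in either direction, summed to 539 to 1315 FPKM in liver and 1048 to 2983 in adipose. In the other direction, hypothalamus column 42 held the most Alb and Apoa1 of its tissue, at 60.3 and 10.8 FPKM. The part of these traces in the comparisons was not tested.

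**Figure D4:**
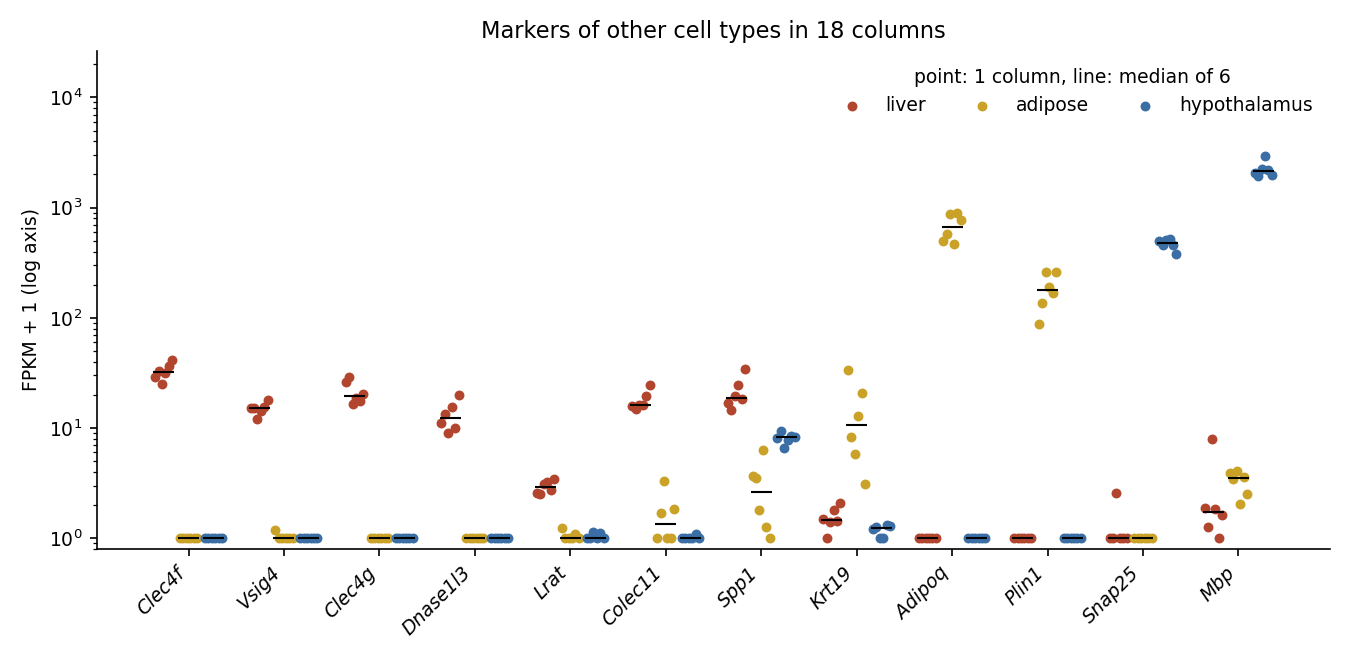
FPKM + 1 on a log axis for 12 markers of other cell types, 1 point per column and a line at the median of the 6 columns of a tissue. Clec4f and Vsig4 (Kupffer), Clec4g and Dnase1l3 (sinusoidal) and Lrat and Colec11 (stellate) lie above the other tissues in liver. Of the same lists Rgs5, lower in liver, and Fcgr2b and Lyve1, not called, are not drawn. Adipoq and Plin1 are listed at 0 in liver, and Mbp reaches 6.92 FPKM in 1 liver column.

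Genes lower in liver with the largest differences, at 10 FPKM or more in both other tissues, came from several cell types. Slc1a3, a glutamate transporter, was at most 0.192 FPKM in liver against 24.4 to 47.6 and 131 to 172, and Nnat, an imprinted membrane protein, at most 1.04 against 31.6 to 104 and 77.1 to 449. Phgdh, the first enzyme of serine synthesis, was listed at 0 in liver and was at 18.9 to 51.8 FPKM in adipose and 27 to 33 in hypothalamus. Arxes2 was at most 0.226 FPKM in liver, the opioid precursor Penk at most 0.0414, and Sncg and Timp4 were listed at 0. No liver column overlapped another tissue in these genes, which were picked for the size of their differences, so this is a description. Every liver column lay below every other column for 2819 of the 13847 genes and for 1595 of the 1845 called lower.

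Wdr1, which takes actin filaments apart in every cell, was also listed at 0 in all liver columns, against 24.4 to 30.4 FPKM and 45.3 to 54.4, so a failed estimate cannot be told apart from a low level. Of 1810 genes with medians of at least 10 FPKM in both other tissues, 15 were listed at 0 in every liver column. Cdk8, a kinase of the Mediator complex, had the largest difference. It was at 5.72, 4.31, 6.38, 5.97, 6.43 and 5.86 FPKM in liver, 909.8, 2965, 3578, 3269, 707 and 1618 in adipose and 6.67, 2614, 3093, 4079.7, 3049 and 2492 in hypothalamus, so hypothalamus column 03 lay at the level of liver. Counted from models on the annotated strand only, Cdk8 was not called.

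In all 3 tissues columns resembled each other more than those of other tissues. Over the genes tested, Pearson's r of log2(FPKM + 1) was 0.957 to 0.978 between liver columns, 0.534 to 0.578 with adipose and 0.305 to 0.332 with hypothalamus, values that share each library and its scale. Between adipose columns r was 0.825 to 0.957, and between hypothalamus columns 0.952 to 0.965. Each tissue had its own assembly, and the part of that was not tested. The SD among the 6 liver columns had a median of 0.22 log2 units over the 2728 genes of at least 10 FPKM in liver, and 118 of them (4.33%) had an SD of at least 1. Of the 20 genes with the largest SD, many had a column at or near 0 beside others at full level, as in Hspd1, a mitochondrial chaperone, at 0, 0, 95.3, 0, 0 and 78.4 FPKM, Mttp, which loads lipid on apolipoprotein B, at 65, 0, 0, 0, 55.6 and 0, and Sdhd, of respiratory complex II, at 16.5, 83, 0, 17.5, 0 and 0. Others stood out in 1 column: Sspn was at 935 FPKM in column 15, all of it on the opposite strand, and listed at 0 in the other 5.

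Mup14 was at 289.6, 204, 275, 0, 0 and 0 FPKM, present in 03, 13 and 15 and listed at 0 in the rest and in both other tissues. It was called higher, and the call was lost without any 1 of those 3 columns. Whether these columns differ by treatment, litter or handling is not given in the headings and was not tested. Plasma protein genes ranged widely in spread: the SD was 0.05 log2 units for Fgg, 0.06 for Apoh and 0.11 for Plg, but 2.06 for Alb, 1.92 for Ahsg, 4.04 for Apoa2 and 3.09 for F12.

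**Figure D5:**
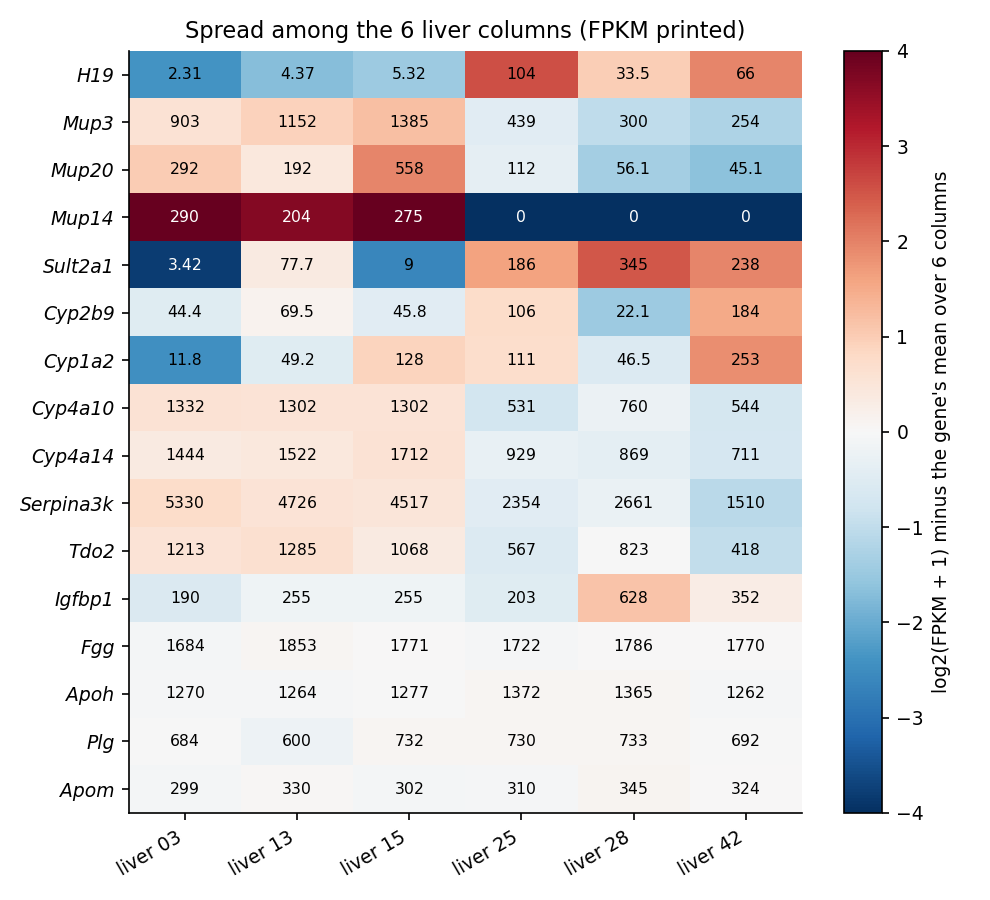
FPKM of 16 genes in the 6 liver columns, printed in each cell, with the colour giving log2(FPKM + 1) minus the gene's mean over the 6 columns. H19 and Sult2a1 are high in columns 25, 28 and 42, Mup3, Cyp4a10 and Serpina3k in columns 03, 13 and 15, and the lowest rows barely vary.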

How the data were processed

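RNA from liver, gonadal adipose tissue and hypothalamus was sequenced from poly(A)-selected libraries. The submitters' processing notes name HISAT 0.1.6, StringTie 1.0.4 and the mouse build mm10. The authors deposited FPKM values in 1 transcript table and 1 gene table per tissue, per the file headers, so each tissue had its own assembly. Whether the tissues were normalised jointly, whether libraries were stranded, and the read depth are not given in the sources used here, so no counting error can be given.

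From the transcript tables FPKM was summed over all models of a gene name in each column. In all 23904 names were matched over the 18 columns, and 31 non-numeric cells were treated as missing. The 13847 genes with a mean of at least 1 FPKM in some tissue were fitted as log2(FPKM + 1) with limma 3.58.1 (R 4.3.3, trended variance) over all 18 columns, a procedure tested on simulated data. A call required at least 1 log2 unit against both tissues and a Benjamini-Hochberg adjusted p under 0.05 for the larger p. Shares of column totals were compared by exact permutation tests (scipy 1.17.1). Positions, names and promoter sequences came from RefSeq tables of GRCm38.p6. No treatment comparison was made.

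The members and gene lists were chosen with earlier results of these data known. Named genes are the 5 markers, the 20 of highest liver level, those with the largest differences or the largest spread, and, of each list, those highest in level, those with the largest differences and those called lower. Some genes that met this rule are not reported here. Acadvl, C3, Crisp1, Eef1a1, Mup1, Rpph1 and list members named only as not called were chosen after their values were seen. Alternatives covered scaling, pseudocount, filter, gene table, largest model, strand, ranks, the size of difference and columns left out. Genes that share sequence with close relatives, or overlap others on either strand, are uncertain. The genes of the mitochondrial genome and Adgre1, C5, Angptl8, Tkfc and Hbb-b2 were not analysed here.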

Additional observations from a re-analysis of the deposited data

Results flagged for a closer look

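A column stood apart from the other 5 of its tissue, by the ratio of its gap to the range of log2(FPKM + 1) against Dixon's critical value, in 29 of 276 combinations of a named gene and a tissue with a median of at least 1 FPKM, or 10.5%. Chance gives about 1 in 20 for genes picked without regard to their values. Some of these genes were picked for their spread or after their values were seen, so the share cannot be set against that rate. The causes were not tested.

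In liver the low columns were Ahsg in column 25 at 256.8 FPKM, Alb in column 28 at 1111.6, Apoa2 in column 13 at 4.013 and Tat in column 13 at 0.3365. Column 13 was also lowest for Cdk8 at 4.307 FPKM and Plg at 599.7. Column 28 was lowest for Hamp at 24.51 FPKM and its copy Hamp2 at 34.17. Column 03 was lowest for Glud1 at 185.1 FPKM, Glul at 29.33 and Tm7sf2 at 0.7705. Column 15 was lowest for Gls2 at 71.07 FPKM, column 25 for Xbp1 at 18.87 and column 42 for Nags at 9.424. No liver column stood apart as high in a gene of this set.

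In adipose, column 42 was low for Cfb at 3.614 FPKM and Hmgcs1 at 1.344. Column 15 was high for Cebpb at 18.89 FPKM and column 25 for Slc25a15 at 5.028.

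In hypothalamus, column 03 was low for Cdk8 at 6.666 FPKM and high for Ttr at 646.1. Column 25 was low for Cd24a at 6.609 FPKM, Mttp at 1.76 and Rgs5 at 25.3, and high for Mbp at 2964.1. Column 42 was high for 2 liver genes, Cyp3a11 at 5.321 FPKM and Serpina3k at 7.112. Column 28 was high for Cebpb at 5.69 FPKM and low for Sepp1 at 2.475, and column 15 was low for Scp2, listed at 0.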

How the results depend on the processing

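The number of genes higher in liver than in each other tissue, 1166 as reported, lay between 974 and 1481 under the other scalings, filters, pseudocounts and tables tried. It was 2050 with percentile ranks within a column, of which 982 were among the 1166, 1756 with no minimum difference and 682 with at least 2 log2 units. The number lower, 1845 as reported, was 4334 with column totals set equal, 3258 with a pseudocount of 0.1, 4338 with no minimum difference and 391 with at least 2 log2 units. Genes that differ between liver and adipose rose in number from 4956 to 7526 with equal totals. The share of the 10 highest genes, liver minus adipose, changed from 1.42 to -6.06 percentage points without Alb (exact permutation test, p = 0.00866), an alternative chosen after seeing the data. That alternative removed a leading gene of liver only, so it cannot rank the tissues. Leaving out each liver column in turn gave 1152 to 1171 higher and 1786 to 1904 lower genes, 4878 to 4996 that differed from adipose and 8179 to 8269 from hypothalamus. Of 126 named genes called, 95 kept the call in every alternative run and 31 lost it in at least 1. Most losses came from percentile ranks (16 genes) and from the 2 log2 unit minimum (21 genes).

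Deviations of columns with the same heading number correlated at -0.018 to 0.022 between liver and hypothalamus (6 pairs). Between liver and adipose (4 pairs) they correlated at -0.004 to 0.034, and in each comparison 1 column was best matched to its own number. Organs of the same animal need not share such deviations, so these values cannot show whether a number marks the same animal. With the heading number as a replicate block 1157 genes were higher and 1763 lower, 4762 differed from adipose and 8226 from hypothalamus. Of the named genes Mup14 and Nfil3 lost their calls under the block. Without read depth, the precision of low values is unknown.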
